A study of Mus musculus with 6 samples.

Results

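The miR-30 family was followed in myofibroblasts of mouse skin wounds and in fibroblast-like cells of skin. Its members were all names on the microRNA array whose stem, without species, arm and precursor number, is miR-30a, miR-30b, miR-30c, miR-30d or miR-30e. This gave 10 of the 690 miRNA names on the array, 5 of them 5p arms and 5 of them 3p arms. All mice carried a transgene in which the smooth muscle actin (SMA) gene's control region drives GFP, and all sorted cells lacked CD45, which marks blood cells, and CD31, which marks endothelium. The wound group held GFP-high cells sorted 7 days after injury, which the submitters call myofibroblasts, and the skin group held GFP-low cells of dermis. Each group had 3 preparations on 1 array each, numbered 3, 4 and 6 for wound and 1, 2 and 5 for skin. The SMA reporter also labels smooth muscle and pericytes, so GFP brightness alone does not name a cell type. Tissue, injury and GFP level changed together, and their effects cannot be told apart. Strain, sex, age and pooling of animals are not given in the sources used here, and nothing in the labels ties a preparation to an animal, so the p-values reflect the scatter of these 6 preparations, part of which may be technical. The array reads RNA of a whole sorted population, in which fewer cells of a type and less RNA per cell cannot be told apart.

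A microRNA gene is transcribed as a hairpin, from which a 5p and a 3p strand are cut. In the miR-30 family the 5p strand is the usual guide, loaded into Argonaute to repress messenger RNAs that match its seed (bases 2 to 8), and the 3p strand is the passenger, which is less often kept. The family is widely expressed and known for holding cells in an epithelial or differentiated state, and in heart muscle miR-30c is known to repress Ccn2 (connective tissue growth factor), a matrix protein that accompanies fibrosis. Its genes lie in 3 pairs. Mir30a and Mir30c-2 neighbour each other on chromosome 1, Mir30e and Mir30c-1 lie within the gene Nfyc on chromosome 4, and Mir30b and Mir30d neighbour each other on chromosome 15. Nfyc encodes a subunit of the CCAAT-binding factor NF-Y. The mature miR-30c-5p is identical from both of its precursors, so its signal belongs to the chromosome 1 and the chromosome 4 pair together, while the 3p arms of the precursors have different sequences.

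The mature guide strands are shown because every 5p comparison is between molecules with the same seed. Sequences come from RefSeq (GRCm38.p6), which gave 7 of the 10 names in the table used. They are written 5′ to 3′ with the seed in capitals.
mmu-miR-30a-5p: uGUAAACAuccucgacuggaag
mmu-miR-30c-5p: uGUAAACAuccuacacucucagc
mmu-miR-30e-5p: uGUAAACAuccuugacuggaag
miR-384-5p: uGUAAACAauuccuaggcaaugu
mmu-miR-30b-5p and mmu-miR-30d-5p are named only, and the species prefix mmu- is left out from here on except where a member's values are first given. Among 1679 mature mouse names in that table, 4 carried the seed GUAAACA, and miR-384-5p was the only one outside the family. miR-30a-5p and miR-30e-5p differ by C13U alone, with positions counted from 1 at the 5′ end. miR-30a-5p and miR-30c-5p match at 17 of 22 positions and first differ at position 13. The 4 passenger strands with a sequence fall under 2 seeds, which differ from the guide seed.
miR-30a-3p: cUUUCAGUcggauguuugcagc
miR-30e-3p: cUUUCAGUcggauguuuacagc
miR-30c-1-3p: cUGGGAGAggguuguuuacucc
miR-30c-2-3p: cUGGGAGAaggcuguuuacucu
miR-30a-3p and miR-30e-3p differ by G18A alone, and the 3p arms of the miR-30c precursors differ at 3 of 22 positions. How far each probe also binds its nearest relatives was not tested.

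The hairpins show where the arms sit and how the pairs resemble each other across chromosomes. Both arms are in capitals.
Mir30a (chr1:23272269-23272339, plus strand): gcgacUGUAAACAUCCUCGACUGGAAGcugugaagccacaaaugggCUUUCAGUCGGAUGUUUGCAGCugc
Mir30c-2 (chr1:23291701-23291784, plus strand): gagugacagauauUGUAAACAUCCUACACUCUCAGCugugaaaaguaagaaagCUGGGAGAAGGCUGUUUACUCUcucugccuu
Mir30c-1 (chr4:120769534-120769622, minus strand): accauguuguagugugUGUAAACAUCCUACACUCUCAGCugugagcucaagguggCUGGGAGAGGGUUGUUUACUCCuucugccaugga
Mir30e (chr4:120772606-120772697, minus strand): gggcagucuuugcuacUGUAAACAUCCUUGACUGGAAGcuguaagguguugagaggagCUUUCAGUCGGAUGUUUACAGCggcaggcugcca

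Levels are spot signals divided by each array's 75th percentile over well-measured probes and given on the log2 scale, so 0 is that percentile. The percentile was 786 to 1136 intensity units on the wound arrays and 1244 to 1772 on the skin arrays, with 0 saturated spots. The test took in the 222 names that the scanner flagged well above background throughout at least 1 group. Markers of other cells were mostly dim. All 6 blood names tied at the floor in every summed level, although miR-451a was well above background on 2 skin arrays, and 0 of 4 skeletal muscle names were measured on any array. Of 7 epithelial names, 5 were undetected, and miR-203-3p with miR-205-5p passed background on 3 skin and 0 wound arrays and were both called lower (20.7% of all tested miRNAs were). Both entered the test through skin alone and lay at the floor on every wound array, so they could only be called lower. The summed level of the list was 0.177 on each wound array, which is its value with every name at the floor, against 0.221 to 0.297 on the skin arrays. The endothelial miR-126-3p differed by 0.50 and did not pass (adjusted p = 0.109 in limma), with a summed level of its list of 0.0773 to 0.0973 on wound arrays and 0.0609 to 0.0829 on skin arrays. Of 5 smooth muscle and mesenchyme names, miR-143-3p (1.24) and miR-145a-5p (0.65) were called higher (44.1% of all tested miRNAs were), miR-199a-3p (-0.62) lower and 2 neither. The list summed to 13.3 to 14.7 on wound arrays and 15.3 to 20.5 on skin arrays. This sum mostly follows miR-199a-3p, the brightest of the list, with mean log2 levels of 3.21 in wound and 3.83 in skin. It does not describe the list as a whole. miR-145a-5p entered the test through wound alone, above background on 3 wound and 2 skin arrays, with a skin mean of -5.23 near the floor of -5.30. The part of these cell types' RNA, epithelial RNA included, in the differences of the family was not tested. The mesenchymal miR-199a-5p and miR-214-3p passed background on all 6 arrays. The authors also deposited a log2 table whose columns 1, 2 and 3 equal the arrays titled 3, 4 and 6 and whose columns 4, 5 and 6 equal those titled 1, 2 and 5, so the table's numbers and the array titles conflict. Groups here follow the titles of the scanner files. Correlations of log2 levels between arrays were 0.985 to 0.992 within these groups and 0.846 to 0.883 between them. Grouping by the table's numbers puts arrays titled wound and skin into the same group. By those numbers 0 of the family's differences passed in limma (adjusted p = 0.935 for each guide strand that turned sign).

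The comparison asked which family members differ in abundance between myofibroblasts of the wound and GFP-low skin cells. miR-30c-5p, miR-30b-5p and miR-30d-5p were lower in the wound cells, at 44.2%, 60.6% and 62.2% of their skin levels. miR-30e-5p was 77.0% of its skin level and miR-30a-5p was 109%, and neither passed the test. The 5p arms were thus called lower in 3 of 5 cases and higher in 0 of 5 (limma, Benjamini-Hochberg adjusted over all 222 tested names at 0.05), against 20.7% of all tested miRNAs called lower. In either direction 64.9% of all tested miRNAs were called, and 44.1% were called higher. The median difference of the 5 arms was -0.69 on the log2 scale, beside 0.38 for all tested miRNAs. The 5p arms passed the filter on dim signals on all 6 arrays, so none of them entered through 1 group alone.

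**Figure D1:**
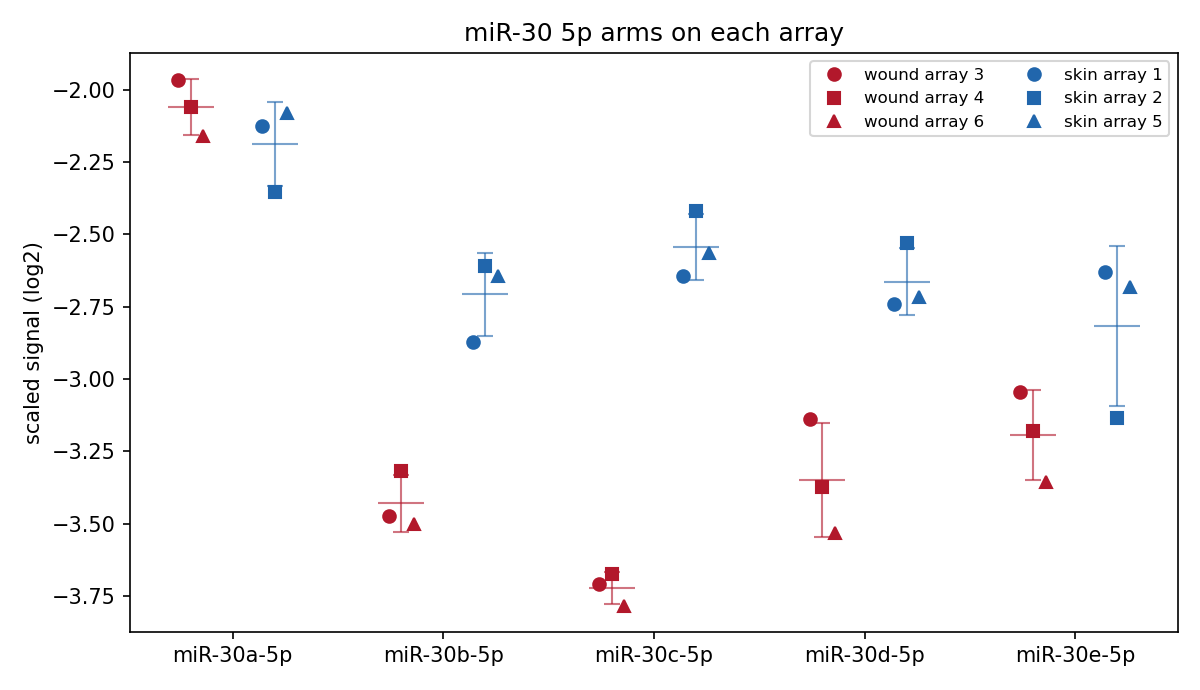
Scaled log2 signal (vertical axis) of the 5 miR-30 guide strands on each array, wound arrays in red left of skin arrays in blue, with bars for mean and SD (n = 3 each). Wound and skin points are apart for miR-30b-5p, miR-30c-5p and miR-30d-5p and overlap for miR-30a-5p and miR-30e-5p; heights of different miRNAs come from different probes and are not comparable.

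miR-30c-5p, the member made by 2 genes, showed the largest decrease of the 5. mmu-miR-30c-5p had log2 levels of -3.71, -3.67 and -3.78 on wound arrays 3, 4 and 6, against -2.64, -2.42 and -2.56 on skin arrays 1, 2 and 5. Every wound value lay below every skin value, and the mean was -3.72 ± 0.055 in wound and -2.54 ± 0.11 in skin (SD, n = 3 each). The difference was -1.18 (SE 0.071, 95% interval -1.36 to -0.99, adjusted p = 8.57e-05 in limma). Before scaling the signals were 60.2, 85.8 and 82.6 intensity units on the wound arrays, against 238, 232 and 299.5 on the skin arrays. It ranked 19th from the lowest among the 222 differences.

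The chromosome 15 pair moved by nearly the same amount in both members. mmu-miR-30b-5p had log2 levels of -3.47, -3.32 and -3.50 on the wound arrays, against -2.87, -2.61 and -2.64 on the skin arrays. The groups did not overlap, and the difference was -0.72 (SE 0.094, 95% interval -0.96 to -0.48, adjusted p = 0.00169 in limma). mmu-miR-30d-5p had log2 levels of -3.14, -3.37 and -3.53 on the wound arrays, against -2.74, -2.53 and -2.72 on the skin arrays. These groups did not overlap either, with wound array 3 the nearest to the skin values, and the difference was -0.69 (SE 0.12, 95% interval -1.001 to -0.37, adjusted p = 0.00595 in limma). Over all tested miRNAs, 21.2% had all 3 wound values below all 3 skin values, as 3 of the 5 guide strands did, and 69.8% had groups apart in either direction.

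The guide strands that are unique to the chromosome 1 and chromosome 4 pairs differ by a single base, and neither passed the test. mmu-miR-30a-5p had log2 levels of -1.97, -2.06 and -2.16 on the wound arrays, against -2.13, -2.35 and -2.08 on the skin arrays. The groups overlapped, and the difference was 0.13 (SE 0.095, 95% interval -0.12 to 0.37, adjusted p = 0.299 in limma). mmu-miR-30e-5p had log2 levels of -3.04, -3.18 and -3.35 on the wound arrays, against -2.63, -3.14 and -2.68 on the skin arrays. Skin array 2 lay among the wound values, and the difference was -0.38 (SE 0.17, 95% interval -0.81 to 0.058, adjusted p = 0.106 in limma). Without skin array 2 it was -0.52, with an adjusted p of 0.00841 in limma, so under this scaling the call changed with 1 array left out. The call also changed with the scaling, as given below.

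**Figure D2:**
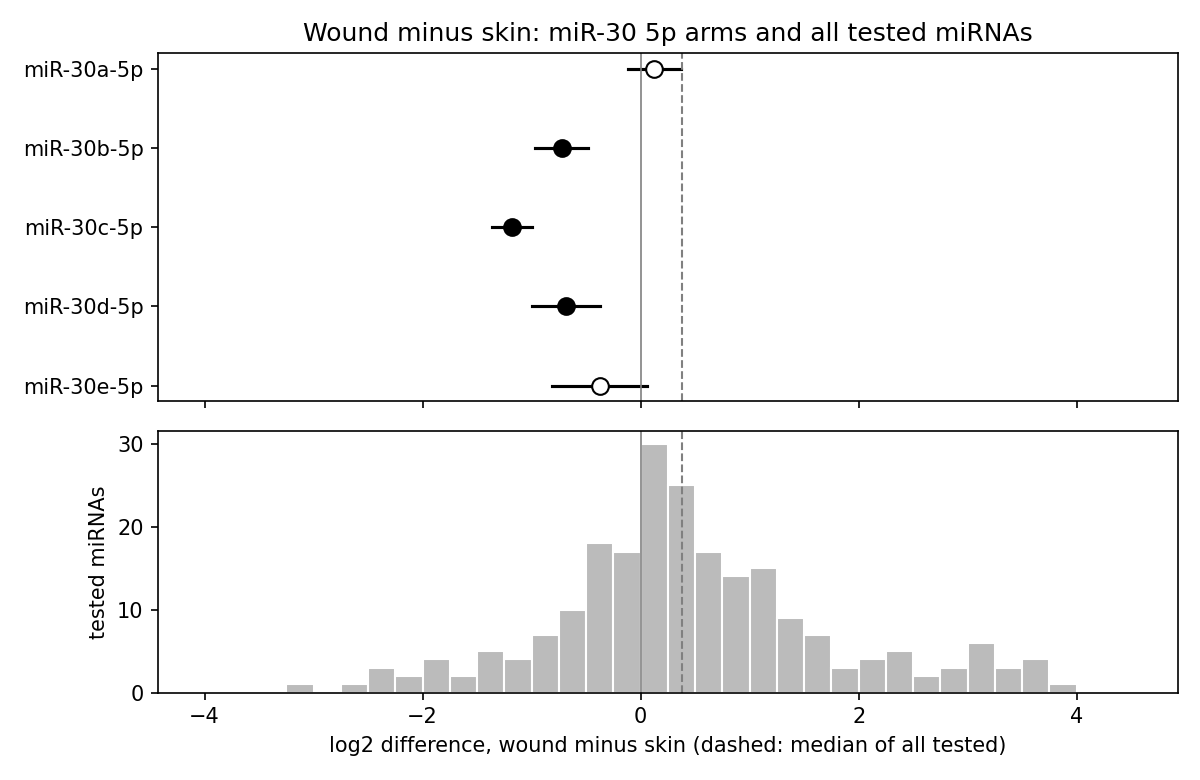
Upper panel: log2 difference, wound minus skin, of each miR-30 guide strand with its 95% interval from limma; filled points passed at an adjusted p of 0.05. Lower panel: the same difference for all 222 tested miRNAs on the same horizontal axis, with the median of 0.38 dashed. All 5 guide strands lie left of that median, and miR-30c-5p lies farthest left of the 5 at -1.18.

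The size of these differences depended on how the arrays were scaled, and so did the median difference over all tested names. That median was 0.38 as scaled here, -0.19 with the 75th percentile of all probes, 0.00 with the median of each array, 0.00 with quantile normalization, and -0.085 with no scaling. miR-30b-5p, miR-30c-5p and miR-30d-5p were called lower under each of these 5 scalings. An alternative with another background correction, normexp, ended these calls. It subtracts the local background and models what is left as signal plus residual background. It also took median spot signals, added an offset of 50 intensity units and set no floor. The part of each of these changes was not tested. With it the differences of miR-30b-5p, miR-30c-5p and miR-30d-5p turned to 0.68, 0.52 and 0.70 (adjusted p = 0.357, 0.479 and 0.310 in limma), while the median of all tested miRNAs was 1.33. miR-30e-5p was called lower under 4 of 5, with differences of -1.06 to -0.38. miR-30a-5p was called lower under 2 of 5, the 75th percentile of all probes (-0.56) and quantile normalization (-0.33), and its sign turned from the 0.13 above under all 4 others. The 5p members called lower numbered 3, 5, 4, 5 and 4 in the order of scalings just given, beside 20.7%, 34.2%, 29.7%, 30.2% and 24.3% of all tested miRNAs. Taken minus the median over all tested names, the differences ranged from -1.76 to -1.56 for miR-30c-5p and from -0.37 to -0.25 for miR-30a-5p, so both stayed on 1 side of it.

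**Figure D3:**
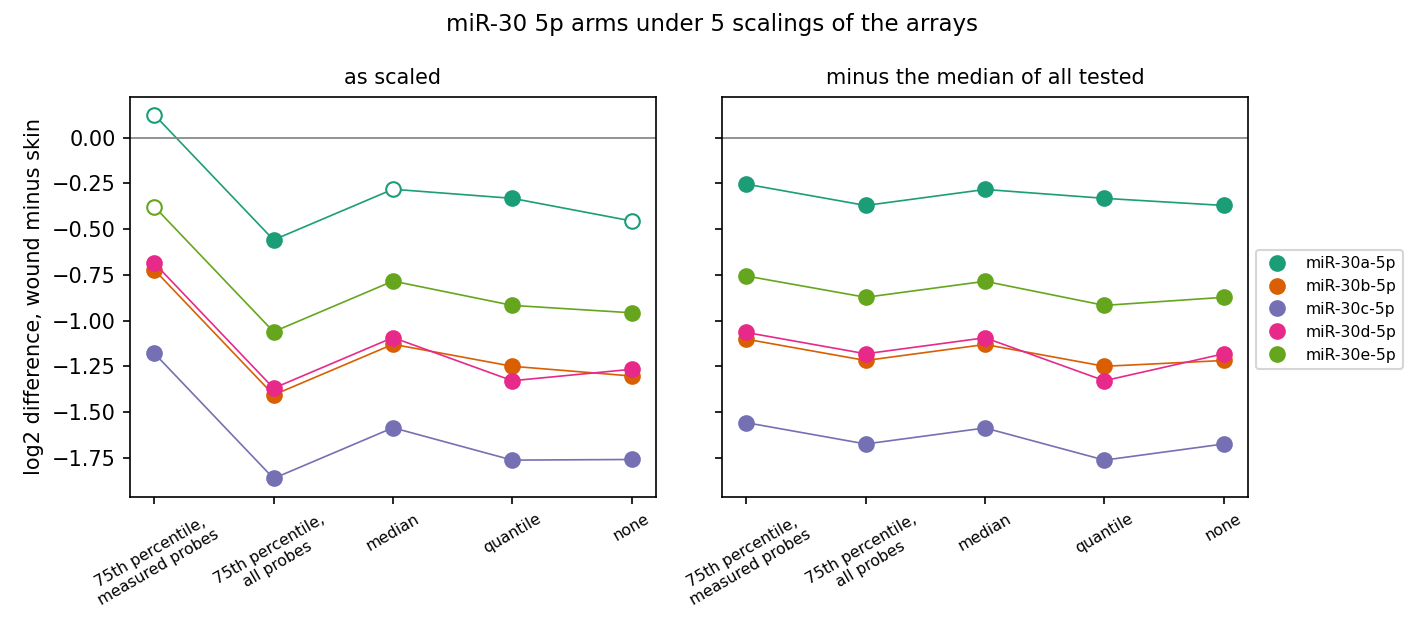
Log2 difference, wound minus skin, of each miR-30 guide strand under 5 scalings of the arrays (horizontal axis); lines only join points of 1 miRNA. Left, differences as scaled, filled where the adjusted p in limma was under 0.05; right, the same minus the median of all tested miRNAs, where the order from miR-30a-5p down to miR-30c-5p is the same under the 5 scalings apart from the neighbours miR-30b-5p and miR-30d-5p.

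Arrays lay in 2 rows of 1 slide, and both rows held both groups. In row 1, with 1 wound and 2 skin arrays, the differences were -1.17 for miR-30c-5p, -0.73 for miR-30b-5p and -0.50 for miR-30d-5p. In row 2, with 2 wound arrays and 1 skin array, they were -1.16, -0.76 and -0.74 for the same members. miR-30e-5p differed by -0.16 in row 1 and by -0.58 in row 2. miR-30a-5p differed by 0.27 in row 1 and by -0.028 in row 2, so its sign was not the same in both rows.

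Members can be set against each other within each array, where a single scaling factor per array cancels. The quantity is the log2 level of 1 member minus that of another on the same array, and only its change between groups is read, since levels of different probes are not comparable. miR-30a-5p minus miR-30c-5p was 1.74, 1.62 and 1.62 on the wound arrays, against 0.52, 0.068 and 0.48 on the skin arrays. This ratio was higher on every wound array, by 1.30 on the log2 scale or 2.47-fold. miR-30a-5p minus miR-30e-5p, the contrast of the single-base neighbours on chromosomes 1 and 4, was 1.08, 1.12 and 1.19 on the wound arrays, against 0.50, 0.78 and 0.60 on the skin arrays. It was higher by 0.50 (1.42-fold), with no overlap. Quantile normalization does not cancel in these contrasts, and with it these differences were 1.43 and 0.59. The background correction and the offset added under normexp do not cancel either. With normexp the difference was 0.26 for miR-30a-5p minus miR-30c-5p and turned to -0.057 for miR-30a-5p minus miR-30e-5p. The mean of miR-30b-5p and miR-30d-5p minus miR-30a-5p was -1.33 ± 0.037 in wound and -0.50 ± 0.25 in skin (SD, n = 3 each), a difference of -0.83.

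Contrasts among miR-30b-5p, miR-30d-5p and miR-30e-5p overlapped between the groups. miR-30b-5p minus miR-30d-5p, within the chromosome 15 pair, was -0.081 ± 0.22 in wound and -0.045 ± 0.10 in skin (SD, n = 3 each). The mean of that pair minus miR-30e-5p was -0.20 ± 0.056 in wound and 0.13 ± 0.39 in skin, with overlapping groups. Contrasts with miR-30c-5p did not overlap. miR-30c-5p minus miR-30e-5p was -0.66, -0.50 and -0.43 on the wound arrays, against -0.013, 0.71 and 0.12 on the skin arrays, a difference of -0.80 without overlap. In all 12 contrasts were compared, 10 of them between pairs of single members. No contrast could reach 0.05 in the exact permutation test used for them, whose smallest p with 3 against 3 arrays is 0.1. The contrasts without overlap had p = 0.1 in an exact two-sided permutation test over arrays (0.15 adjusted over the 12). The groups did not overlap in 7 of the 10 pairs of members, beside 73.6% of all pairs of tested miRNAs, so members of the family parted from each other about as often as miRNAs of the array at large.

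**Figure D4:**
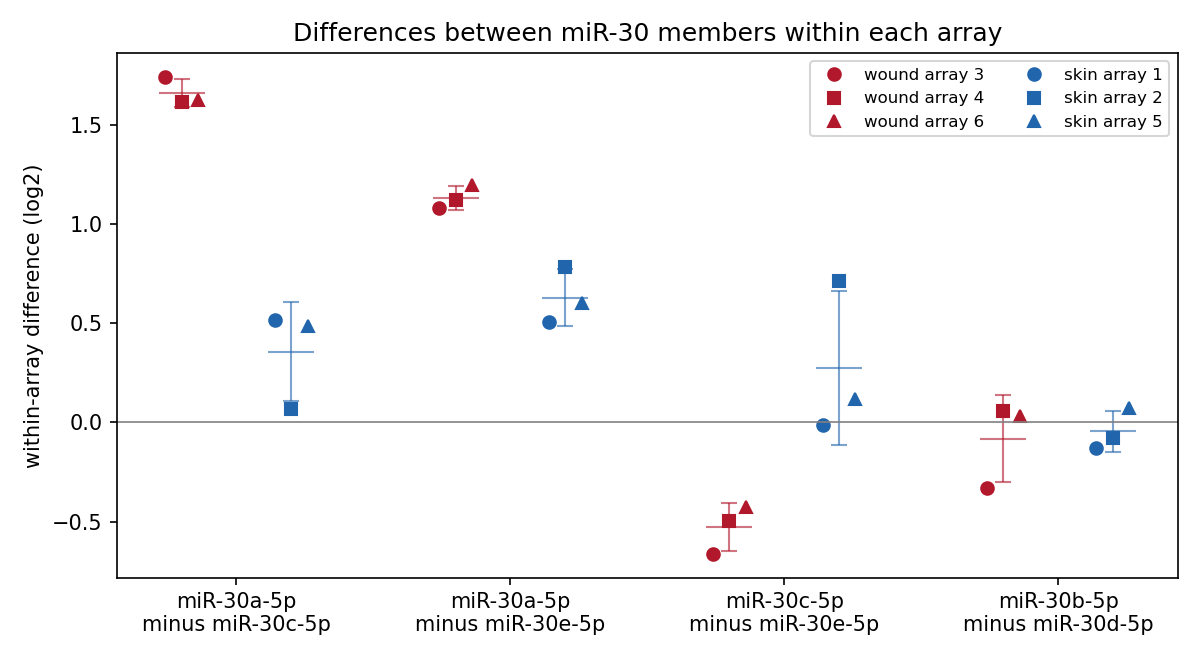
Within-array log2 difference between members (vertical axis), wound arrays in red left of skin arrays in blue, with mean and SD bars (n = 3 each). miR-30a-5p against miR-30c-5p separates the groups most (1.30), and miR-30b-5p against miR-30d-5p shows no separation.

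Each guide strand was read by 2 or 3 probes of 6 to 10 spots, and the probes of a member moved the same way in the 4 members with lower means. The miR-30c-5p probes differed by -1.16 (the brighter) and -1.30 (the dimmer) on the log2 scale. The miR-30b-5p probes differed by -0.69 and -0.96, the miR-30d-5p probes by -0.66 and -0.72, and the miR-30e-5p probes by -0.36 and -0.46. The dimmer probes of miR-30b-5p and miR-30c-5p passed background on 3 skin and 0 wound arrays. The 3 probes of miR-30a-5p differed by 0.00, 0.078 and 0.16, and in each of them the groups overlapped.

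The passenger arms were at or near background, and 0 of 5 were tested. In wound cells none of the 5 was well above background on any array. In skin, miR-30b-3p and miR-30e-3p were so on 2 of 3 arrays, miR-30a-3p and miR-30c-1-3p on 1 of 3, and miR-30c-2-3p on 0 of 3. A difference between the arms of a precursor was therefore not detectable. The scaled signals of miR-30e-3p on the linear scale were 0.0040, 0.0083 and 0.0094 in wound, against 0.0147, 0.0166 and 0.0164 in skin. All 6 lie under the floor of 0.0253 that was set for dim signals, and the wound values lie below the skin values. miR-30a-3p, which differs from it by a single base, gave 0.0109, 0.0119 and 0.0115 in wound, against 0.0130, 0.0161 and 0.0156 in skin, also without overlap. In 1 of its 2 probes the groups overlapped, with a log2 difference of -0.031. Over all tested miRNAs 69.8% had groups apart in either direction, and the share among names under the floor was not counted. miR-30c-1-3p and miR-30c-2-3p, the arms that tell the miR-30c precursors apart, had mean signals of 0.0093 and 0.0069 in wound, against 0.0138 and 0.0062 in skin, all under the floor. miR-30c-1-3p gave 0.0098, 0.0093 and 0.0087 in wound, against 0.0114, 0.0176 and 0.0125 in skin, without overlap. In its probes with log2 differences of -0.30 and -0.028 the groups overlapped. In those with -1.82 and -0.69 they did not, and the probe with -1.82 was above background on no array. The groups of miR-30c-2-3p overlapped. The sources of miR-30c-5p could thus not be separated by these signals. The scanner's own detection flag per miRNA, another criterion, was set for miR-30c-1-3p on 3 arrays and for miR-30c-2-3p on 0. It was set for miR-30a-3p and miR-30e-3p on 3 arrays each and for miR-30b-3p on 4. In the authors' deposited values miR-30c-1-3p stood at -5.69, -4.75 and -5.78 for skin arrays 1, 2 and 5. It equalled miR-30c-2-3p on the wound arrays. In the same values miR-30a-3p (-4.91 to -4.69 in skin) and miR-30e-3p (-4.45 to -4.33 in skin) also equalled miR-30c-2-3p on the wound arrays alone. miR-30b-3p equalled miR-30c-2-3p on wound array 6 and skin array 1. It stood at -5.89 and -6.00 on wound arrays 3 and 4, and at -2.38 and -1.59 on skin arrays 2 and 5.

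miR-30b-3p stood out among them by its spread in skin. Its scaled signal was 0.0181, 0.0163 and 0.0101 on wound arrays 3, 4 and 6, against 0.0088, 0.0541 and 0.0965 on skin arrays 1, 2 and 5. Skin arrays 2 and 5 were high and skin array 1 was lower than each wound array, so the groups overlapped. Each of its 4 probes was highest on skin array 5 and next highest on skin array 2, and passed background on those 2 arrays alone. miR-30b-5p, the guide from the same hairpin, had -2.87, -2.61 and -2.64 on the log2 scale on those skin arrays, where array 1 was also the lowest of the 3. Of 690 names on the array, 4 were at least 2 times as high on skin arrays 2 and 5 as on any other array and well above background on both, namely miR-302c-3p, miR-30b-3p, miR-669b-5p and miR-669e-5p, which were singled out after their values were seen.

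**Figure D5:**
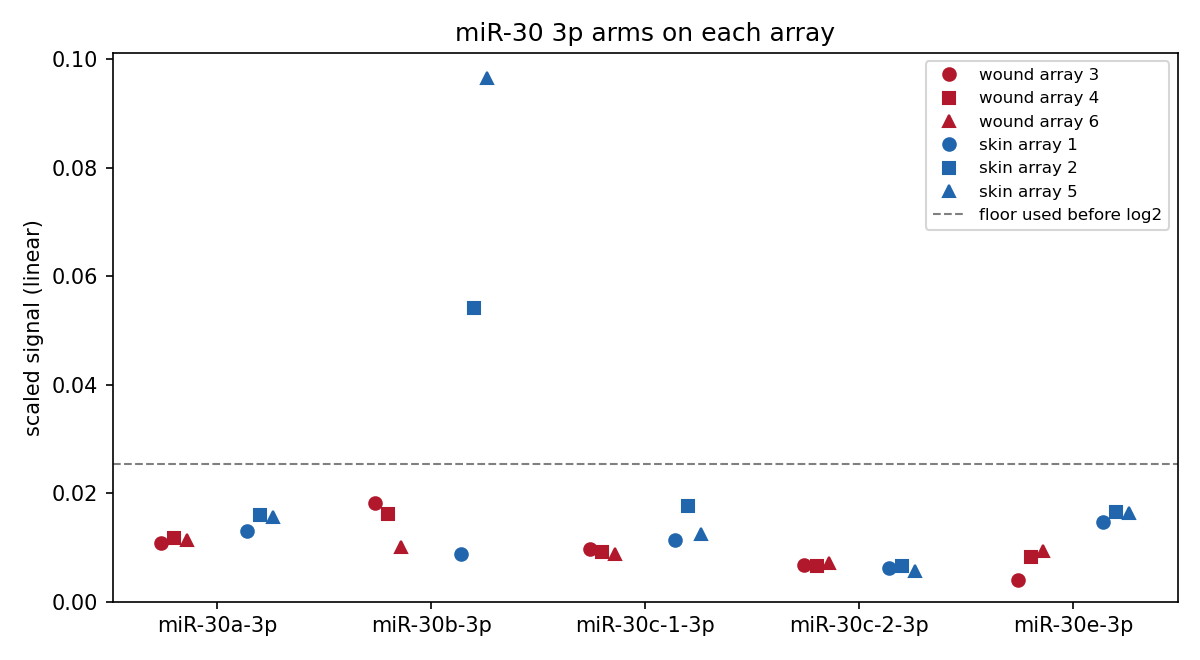
Scaled signal on the linear scale (vertical axis) of the 5 miR-30 passenger arms on each array, wound arrays in red left of skin arrays in blue; the dashed line is the floor of 0.0253. Only miR-30b-3p on skin arrays 2 and 5 lies above it, at 0.0541 and 0.0965.

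In the authors' deposited table, with its columns assigned to arrays by their values, the guide strands kept the same order. miR-30c-5p was listed there at -2.54, -2.36 and -2.27 for the wound arrays, against -0.71, -0.59 and -0.78 for the skin arrays. In the same authors' deposited table miR-30a-5p was listed at -0.66, -0.82 and -0.71 for wound, against -0.26, -0.58 and -0.36 for skin. Both members were lower in wound in these values, which are on that table's own log2 scale. By those values miR-30a-5p differed by -0.33 with an adjusted p of 0.0557 in limma, and miR-30e-5p by -0.83 with an adjusted p of 0.0102.

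miR-384-5p, the only other miRNA with the family's seed, passed background on 0 of 6 arrays, and its signal was below 0 on all of them after background subtraction. Other miRNAs linked to Ccn2 in the literature moved upward where they were measured. Of 6 such names, 3 were tested and 3 of these were higher in the wound cells (44.1% of all tested miRNAs were), namely miR-19a-3p (1.71), miR-19b-3p (0.78) and miR-18a-5p (1.62, above background on 1 of 3 skin arrays). miR-18a-5p entered the test through wound alone and lay at the floor in skin, so it could only be called higher and its difference depends on the floor. Among 7 names of other families described as anti-fibrotic, 7 were tested and 7 were called lower (20.7% of all tested miRNAs were). The direction of this list was known from earlier results of these data, so its count is a description. miR-101b-3p entered the test through skin alone, above background on 3 skin and 0 wound arrays. It lay at the floor on every wound array, so it could only be called lower. The other names of the list were above background on all arrays of both groups. The list includes miR-29a-3p (-1.75), which represses collagen transcripts, and miR-26a-5p (-1.63).

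The miRNAs whose pattern over the 6 arrays was most like the mean of the 5 guide strands were miR-676-3p, miR-107-3p, let-7g-5p, miR-27a-3p and let-7b-5p. Likeness was the root mean square distance between log2 profiles, each centred on its own mean, and the 5 lay at 0.071 to 0.12 among 217 tested miRNAs outside the family. The differences were -0.53 for miR-107-3p, -0.47 for let-7g-5p, -0.67 for miR-27a-3p and -0.76 for let-7b-5p, each called lower. Over all tested miRNAs 20.7% were called lower. These names were picked for likeness to a family mean that is lower in wound, so their direction follows from the choice. miR-676-3p lay at the floor on all wound arrays. By the same measure the members themselves lay at 0.12 (miR-30d-5p), 0.13 (miR-30b-5p), 0.18 (miR-30e-5p), 0.32 (miR-30c-5p) and 0.35 (miR-30a-5p) from the mean of the family. Of the 5 members, 4 were farther from it than each of the 5 outside miRNAs. The outside miRNAs were picked as the nearest of 217 and the members were not, so this count does not measure how alike the members are.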

How the data were processed

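Per the labels, each preparation's RNA carried Cy3 on a 1-colour Agilent miRNA array. Per the file headers, Feature Extraction 10.7.3.1 wrote spot intensity, with background subtracted and no normalization across arrays. A log2 table deposited by the authors was matched to the scanner files: its columns are an array's total gene signal on the log2 scale less 1 number per column, and no source used here gives its making. The submitters' text on amplification and software describes gene expression arrays and was not used.

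Processed signals were averaged over the spots of a probe without outlier flags, scaled to the 75th percentile of probes measured above background on all 6 arrays, averaged over the probes of a miRNA, raised to a floor of 0.0253 (-5.30 on the log2 scale) and taken to log2. Above background means that more than 50% of a probe's spots had the scanner's flag. limma 3.58.1 (lmFit, eBayes, R 4.3.3) compared the groups, two-sided, and was tested on simulated data. No fold changes were given for miRNAs below background in both groups. Named miRNAs are all family members, miRNAs with the same seed, the 5 nearest profiles, members of 3 short lists (linked to Ccn2, anti-fibrotic, epithelial) and of 4 marker lists (blood, endothelium, skeletal muscle, smooth muscle and mesenchyme), and 3 names that shared the array pattern of miR-30b-3p, singled out after their values were seen. Members and lists were chosen with earlier results of these data known. Alternatives covered scaling, background, signal, probe summary, floor, filter, variance model, slide row, each array left out and the authors' table. Figures used matplotlib 3.10.9.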

Additional observations from a re-analysis of the deposited data

How the results depend on the processing

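The 5p members called lower numbered 3, and 5 with the percentile of all probes, 5 with quantile normalization, 0 with normexp (0 at an unadjusted p under 0.05 in limma) and 0 by the table's column numbers; 0 were called higher under any alternative. The miR-30a-5p difference was -0.56 with the percentile of all probes, -0.28 with median scaling, -0.33 with quantile normalization, -0.46 with no scaling, -0.032 with total signals and -0.33 with the authors' table matched by value, an alternative added after seeing the data. In the same order miR-30e-5p was called lower at -1.06, -0.78, -0.92, -0.96, -0.53 and -0.83, and the median of the 5 guide strands was -1.37, -1.09, -1.25, -1.27, -0.84 and -1.13. With normexp on median signals, with an offset of 50 and no floor, the values of miR-30b-5p, miR-30c-5p, miR-30d-5p and miR-30e-5p turned to 0.68, 0.52, 0.70 and 0.84, none passing, and the median of the 5 to 0.70. The median of all tested miRNAs was then 1.33, 22 miRNAs were called in place of 144, and miR-30a-5p minus miR-30e-5p was -0.057. Column numbers of the authors' table mix arrays titled wound and skin in each group. By these numbers miR-30b-5p, miR-30c-5p, miR-30d-5p and miR-30e-5p differed by 0.37, 0.58, 0.26 and 0.47. Their median with miR-30a-5p differed by 0.37, also 0.37 relative to all tested. There 0 of 202 tested miRNAs were called in limma (1 at an unadjusted p under 0.05), the chromosome 15 pair minus miR-30a-5p was 0.070, and the contrasts of miR-30a-5p with miR-30c-5p and miR-30e-5p and of miR-30b-5p with miR-30d-5p were -0.34, -0.23 and 0.11. The median of the 5 was -0.58 with log2 means over probes and -0.59 with a floor 4 times as high, under which 78 miRNAs were called. Relative to all tested miRNAs that median was -1.06, and -1.18 with the percentile of all probes or no scaling, -1.25 with quantile normalization, -0.63 with normexp, -0.93 with log2 means, -0.59 with the high floor, -1.16 with a floor 4 times lower, -0.92 among miRNAs measured on all arrays, -0.69 with no filter, -0.94 with array weights, -0.97 with slide row as a block and -1.18 with the table matched by value. miR-30b-5p minus miR-30d-5p, close to 0, turned to 0.079 with quantile normalization and 0.11 with log2 means, and ranged from -0.11 to 0.089 over left-out arrays, turning at 0.089 without wound array 3 and 0.021 without skin array 5. The causes of these changes were not tested. With each array left out, miR-30e-5p ranged from -0.52 to -0.27, the median of the 5 from -0.71 to -0.58 and from -1.09 to -0.94 relative to all tested; miR-30b-5p, miR-30c-5p and miR-30d-5p passed in 6 of 6 such fits. The number of arrays limits the precision, and passenger arms are limited by signal over background. No paired analysis was possible because the groups share no replicate number.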
